A study of Homo sapiens with 23 samples.

Results

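The lysyl oxidases and lysyl hydroxylases are the enzymes that make the covalent cross-links of collagen and elastin, and 8 of their genes were examined here: 5 lysyl oxidases (LOX, LOXL1, LOXL2, LOXL3 and LOXL4) and 3 lysyl hydroxylases (PLOD1, PLOD2 and PLOD3). They were chosen by gene symbol among the probe sets that the platform annotation assigns to exactly 1 gene, which gave 15 probe sets for the 8 genes, out of 54675 probe sets and 19775 genes in all. Each gene is described by its main probe set, the one with the highest mean log2 signal over all arrays. The genes lie on chromosomes 5 (LOX), 15 (LOXL1), 8 (LOXL2), 2 (LOXL3), 10 (LOXL4), 1 (PLOD1), 3 (PLOD2) and 7 (PLOD3). LOX has 3 such probe sets, LOXL2 has 4, LOXL4 and PLOD2 have 2 each, and the others have 1.

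Cross-linking begins inside the cell. Lysyl hydroxylases of the endoplasmic reticulum add hydroxyl groups to lysines of newly made collagen chains, and the hydroxylysines can then carry sugars or take part in stable cross-links. After secretion, lysyl oxidases, which are copper-dependent amine oxidases, convert lysines and hydroxylysines of collagen and elastin to reactive aldehydes, which condense with neighboring chains. LOX, LOXL2 and PLOD2 are known targets of hypoxia-inducible factors, and LOX and LOXL2 are widely studied in breast tumors, where a cross-linked matrix is stiff.

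RNA was measured on 23 human expression arrays of MCF10A-ER-Src cells, an established line of non-transformed human mammary epithelial cells with Src joined to the hormone-binding domain of the estrogen receptor. Tamoxifen (TAM) turns on the kinase of the fusion and starts transformation. All cells carried the fusion and received 25 nM of an siRNA pool, grew for 48 h, and were then given 1 µM TAM or the ethanol vehicle (EtOH). The 8 groups were siSTAT3 cells (pool against the transcription factor STAT3) with TAM or EtOH for 24 h or 4 h, and siNEG cells (non-targeting pool) with TAM or EtOH for 24 h or 4 h. Each group had 3 arrays except that of siSTAT3 cells given TAM for 24 h, which had 2, labelled replicates 2 and 3. The series was made to find what STAT3 contributes to the expression changes of transformation. The methods speak of biological replicates of this single line, and nothing in the sample labels says that they came from separate cultures, so p-values measure only the spread between these samples.

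Signals are on the linear scale of the MAS5 algorithm in arbitrary units, and a gene was called when limma gave an adjusted p under 0.05. The median signal of an array was 73.5 to 85.3 units, and 100 units is used here as the limit of a dim probe set. The brightest STAT3 probe set read 298 to 495 units on all siSTAT3 arrays and 3914 to 6753 units on all siNEG arrays, a log2 difference of -3.39 to -3.94 over the 4 combinations of treatment and time. KRT5 (13550 to 18817 units) and KRT14 (9428 to 20390 units), the keratins of basal epithelial cells, were high on every array. Of the general and luminal epithelial markers, KRT18 (12395 to 19661 units), KRT8 (2528 to 11004), EPCAM (5458 to 9726) and CDH1 (2737 to 12201) were also bright on every array. KRT19, from the same list, stayed under 39 units on every array. Of the fibroblast markers PDGFRA, PDGFRB, LUM, THY1, DCN, FAP and COL6A3, the first 4 were under 100 units on all arrays, whereas DCN, FAP and COL6A3 gave signal.

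LOX and LOXL2 rose and LOXL1, LOXL3 and PLOD3 fell in siNEG cells after 24 h of TAM, while PLOD1, PLOD2 and LOXL4 were not called. Thus 5 of the 8 genes were called, beside 15.4% of all 19775 genes, with 2 higher (6.06% of all genes) and 3 lower (9.31%). The median log2 difference was 0.20 over the 8 genes and -0.04 over all genes. In siSTAT3 cells at 24 h, 0 of the 8 genes were called by limma (2.75% of all genes), and 2 had an unadjusted p under 0.05. At 4 h, 0 were called by limma in siSTAT3 cells (0.819% of all genes, 0 with an unadjusted p under 0.05) and 0 in siNEG cells (3.26% of all genes, 1.67% higher and 1.58% lower, 2 with an unadjusted p under 0.05). By the stricter limits of the study's methods (p under 0.0001 and an absolute log2 difference over 0.5), LOX and LOXL2 were called at 24 h in siNEG cells, beside 6.11% of all genes.

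**Figure D1:**
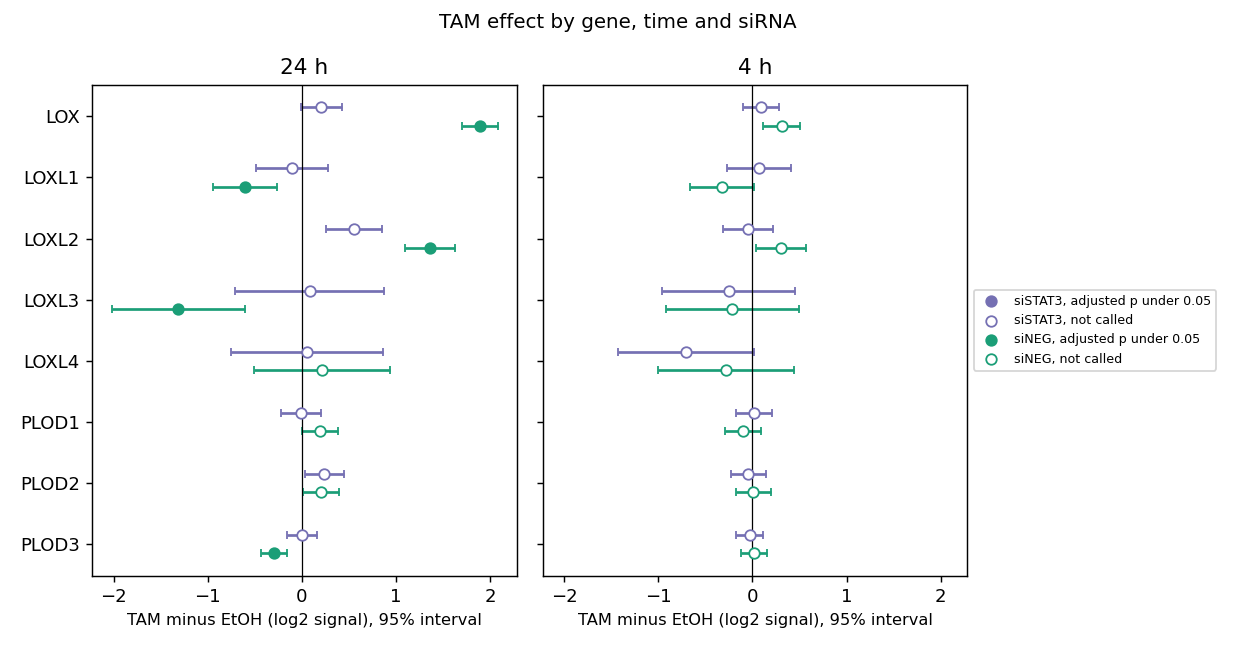
TAM minus EtOH on the log2 signal scale (x axis) for the 8 genes (y axis) at 24 h (left) and 4 h (right), in siSTAT3 cells (purple) above siNEG cells (green), with 95% intervals from limma and filled points where the adjusted p was under 0.05. The 5 filled points all belong to siNEG cells at 24 h, with LOX at 1.89 and LOXL2 at 1.36 on the right and LOXL3 at -1.31 farthest to the left.

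LOX, the founding lysyl oxidase, is secreted as a proenzyme that BMP1 and related proteases cleave to its active form. In siNEG cells at 24 h, its main probe set 215446_s_at read 5782, 5497 and 5607 units with TAM, against 1608, 1458 and 1502 units with EtOH. The lowest TAM array was thus far above the highest EtOH array, and the difference was 1.89 on the log2 scale (SE 0.09, adjusted p = 2.84e-10), a 3.70-fold level. The signal in siSTAT3 cells at 24 h was 1801 and 1531 units with TAM, against 1454, 1418 and 1442 units with EtOH. These groups did not overlap either, but the difference of 0.21 (95% interval -0.01 to 0.42) was not called (adjusted p = 0.434). The interaction at 24 h, that is TAM against EtOH in siSTAT3 cells minus the same difference in siNEG cells, was -1.68 (SE 0.14, adjusted p = 9.71e-07). Less RNA per cell and fewer cells with the RNA cannot be told apart in such bulk samples.

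At 4 h, LOX read 1378, 1427 and 1232 units with TAM in siSTAT3 cells, against 1242, 1345 and 1204 units with EtOH, and these arrays overlapped. In siNEG cells it read 1873, 1716 and 1817 units with TAM, against 1601, 1473 and 1299 units with EtOH. The siNEG groups did not overlap, and the difference of 0.31 (SE 0.09) was not called (adjusted p = 0.0987). It passed with a filter on dim probe sets (adjusted p = 0.0293) and with a trended, robust variance prior (adjusted p = 0.0277). The interaction at 4 h was -0.22 (95% interval -0.49 to 0.05, adjusted p = 0.749). In siNEG cells the TAM effect at 24 h exceeded that at 4 h by 1.58 (SE 0.13, adjusted p = 1.14e-06).

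With TAM, LOX was also lower in siSTAT3 cells than in siNEG cells at both times, with log2 differences of -1.76 at 24 h (SE 0.10, adjusted p = 2.39e-09) and -0.42 at 4 h (SE 0.09, adjusted p = 0.00717). With EtOH the differences between siSTAT3 and siNEG cells were -0.08 at 24 h (adjusted p = 0.834) and -0.20 at 4 h (adjusted p = 0.321). These comparisons use the same TAM arrays as the interaction. Ordered by mean, siNEG cells with TAM at 24 h stood alone at the top, and each of the other 7 groups overlapped its neighbor in the order, down to siSTAT3 cells with EtOH at 4 h.

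**Figure D2:**
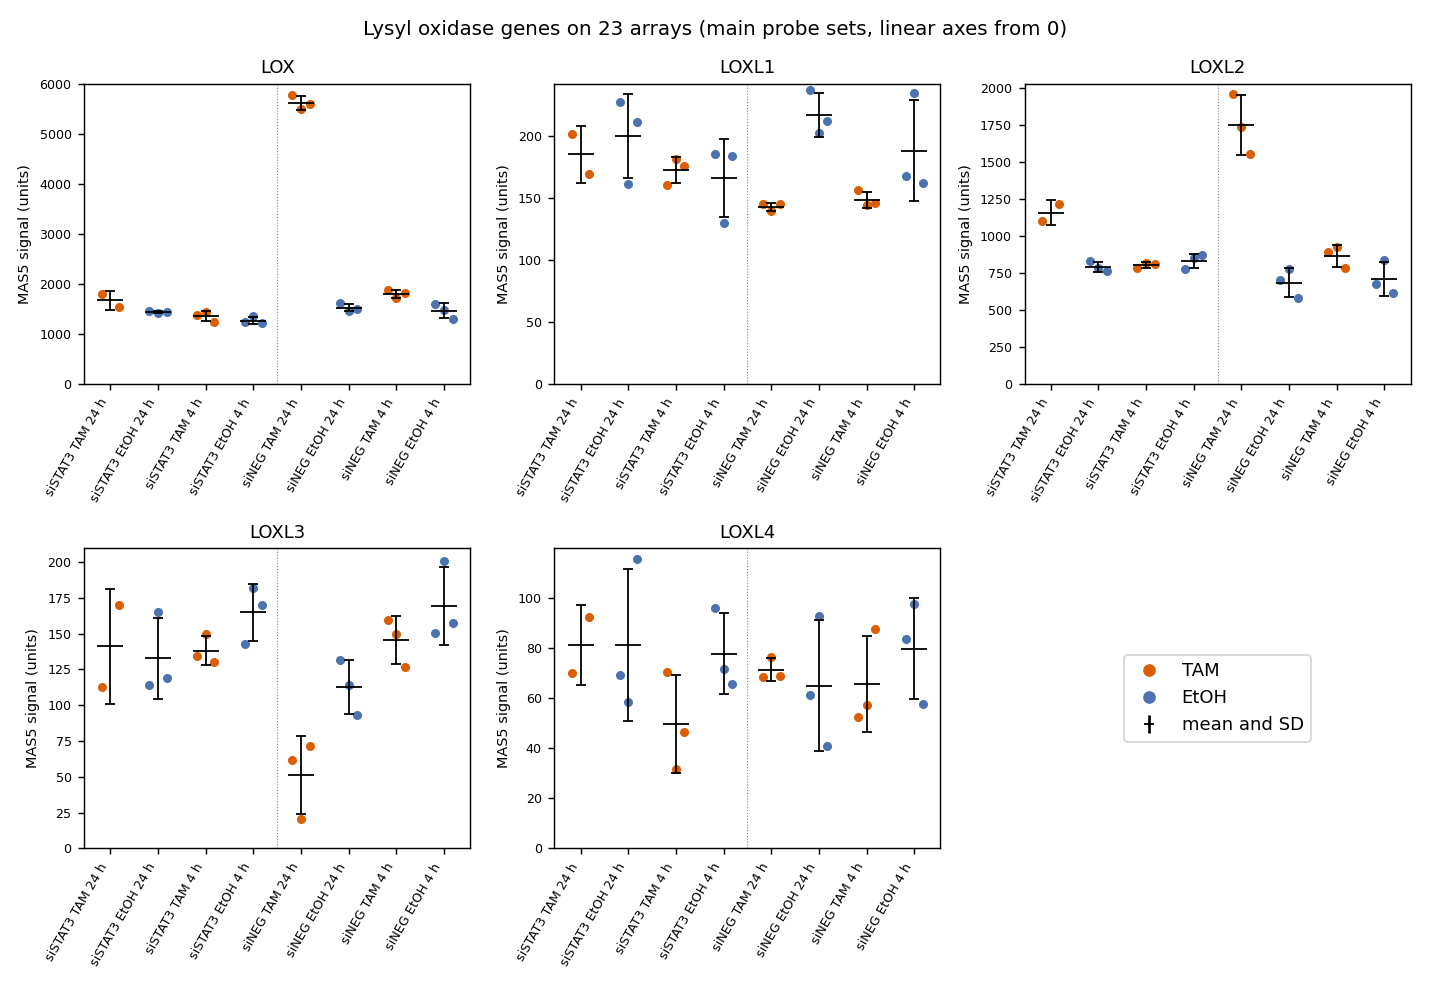
MAS5 signal in units (y axis, from 0) of the main probe sets of LOX, LOXL1, LOXL2, LOXL3 and LOXL4 on the 23 arrays, by siRNA, treatment and time (x axis), with 1 point per array and the group mean and SD in black. LOX in siNEG cells with TAM at 24 h lies at 5497 to 5782 units and in the other 7 groups at 1204 to 1873 units, whereas LOXL3 is lowest and LOXL2 highest in the same group.

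The other LOX probe sets moved in the same direction at 24 h. Probe set 204298_s_at read 1509, 1493 and 1488 units with TAM in siNEG cells, against 445, 346 and 400.2 units with EtOH, a difference of 1.92 (SE 0.10, adjusted p = 4.65e-10). Probe set 213640_s_at, which was under 100 units on all but 4 arrays, read 231, 192 and 174 units with TAM, against 55.9, 57.2 and 62.2 units with EtOH (1.76, SE 0.22, adjusted p = 2.47e-05). Their interactions at 24 h were -1.63 (adjusted p = 2.55e-06) and -1.24 (adjusted p = 0.0415). The probe sets parted in siSTAT3 cells with EtOH, where 24 h exceeded 4 h by 1.36 at 213640_s_at (adjusted p = 0.000508), by 0.33 at 204298_s_at (adjusted p = 0.0346) and by 0.19 at the main probe set (adjusted p = 0.248). The signal of 213640_s_at there was 55.6, 64.7 and 73.0 units at 24 h, against 23.8, 36.5 and 17.8 units at 4 h, so all 6 of these arrays were dim. The same dim probe set was also lower in siSTAT3 than in siNEG cells with EtOH at 4 h (-0.99, adjusted p = 0.0169), while the main probe set was not called there (-0.20). For TAM at 4 h in siSTAT3 cells the probe sets differed in sign, at 0.96 for 213640_s_at (adjusted p = 0.0614), -0.20 for 204298_s_at (0.547) and 0.09 for the main probe set, and so did the 4 h interactions, at 0.77, -0.46 and -0.22. None of these was called.

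**Figure D3:**
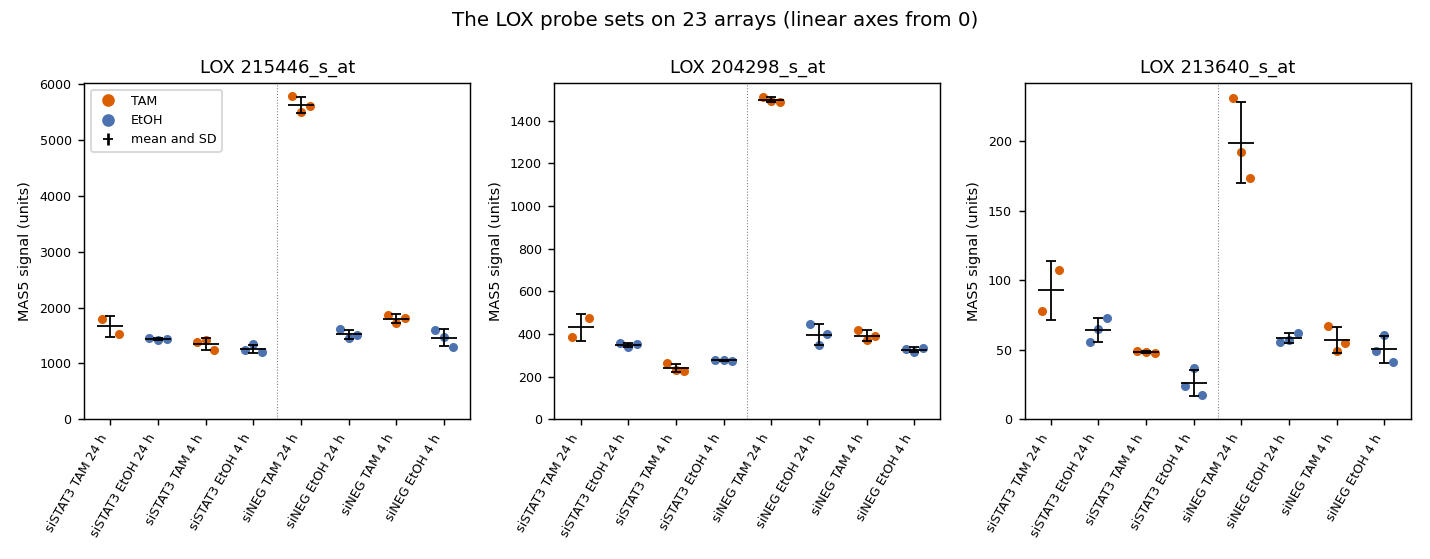
MAS5 signal in units (y axis, from 0) of the LOX probe sets 215446_s_at (main), 204298_s_at and 213640_s_at on the 23 arrays by group (x axis), with 1 point per array and the group mean and SD in black. In each of them the 3 arrays of siNEG cells with TAM at 24 h are the highest, at 5497 to 5782, 1488 to 1509 and 174 to 231 units.

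Because LOX and PLOD2 are known hypoxia targets and STAT3 was depleted, the RefSeq promoter windows (GRCh38.p14, 250 bases before to 50 after each start site) were searched on both strands for ACGTG and GCGTG, the core of hypoxia response elements, for TTCNNNGAA, a STAT-type motif, and for TGANTCA, the AP-1 motif. Of 35116 windows, 21.4% held ACGTG, 36.5% GCGTG, 7.66% TTCNNNGAA and 7.71% TGANTCA. LOX (chromosome 5, minus strand, gene at 122063195 to 122078259) has 3 windows, and its most upstream one, chr5:122078210-122078509, held 4 ACGTG matches and none of the other motifs. The matches are shown with 10 bases on either side, on the strand of the gene from 5′ to 3′, with the motif in capitals (CACGT is ACGTG on the other strand), and no matches share bases. They start 185, 116, 98 and 42 bases upstream of the start site.
LOX, chr5:122078430-122078454: tccctgtgcaACGTGtctgggggga
LOX, chr5:122078361-122078385: gtccgccttgCACGTttccaatcgc
LOX, chr5:122078343-122078367: caatcgcattACGTGaacaaatagc
LOX, chr5:122078287-122078311: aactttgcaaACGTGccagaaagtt
A match describes letters only. Each of the other LOX windows held 1 ACGTG and 1 GCGTG match, at positions that these windows share. The windows of LOXL1, LOXL4 and PLOD3 held none of the 4 motifs, PLOD1 held 2 GCGTG matches, and LOXL2 was not searched. A LOXL3 window held 1 GCGTG match. Of all windows, 48.4% held ACGTG or GCGTG.

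LOXL2, which cross-links the network-forming collagen IV of basement membranes among other substrates, was the other lysyl oxidase that rose. In siNEG cells at 24 h its signal (probe set 202998_s_at) was 1958, 1733 and 1553 units with TAM, against 698, 772 and 578 units with EtOH. The groups lay far apart, with a log2 difference of 1.36 (SE 0.13, adjusted p = 8.26e-07), a 2.57-fold level. With siSTAT3 it read 1096 and 1213 units at 24 h of TAM, against 827, 778 and 757 units with EtOH. These arrays did not overlap, and the difference of 0.55 (95% interval 0.25 to 0.85) was just short of the limit (adjusted p = 0.0590). It passed with quantile normalization (adjusted p = 0.0475), with the filter on dim probe sets (0.0174) and with the trended, robust prior (0.0138).

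The LOXL2 interaction at 24 h was -0.81 (SE 0.19, adjusted p = 0.0197). This call was lost without siNEG TAM 24 h replicate 1 (adjusted p = 0.0539), siSTAT3 EtOH 24 h replicate 1 (0.0517) or siSTAT3 TAM 24 h replicate 2 (0.0884). With TAM at 24 h LOXL2 was lower in siSTAT3 than in siNEG cells (-0.59, SE 0.14, adjusted p = 0.00875), a call lost without siSTAT3 TAM 24 h replicate 2 (0.0903). In the order of means, siNEG cells with TAM at 24 h came first and siSTAT3 cells with TAM at 24 h came second, each clear of the next group, whereas the 6 other groups overlapped their neighbors.

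At 4 h LOXL2 was not called in either siRNA. It read 780.4, 817 and 807 units with TAM in siSTAT3 cells, against 777, 845 and 867 units with EtOH. In siNEG cells it read 886, 926 and 780.2 units with TAM, against 675, 833 and 609 units with EtOH, overlapping groups with a difference of 0.30 (95% interval 0.04 to 0.57, adjusted p = 0.318). In siNEG cells the TAM effect was larger at 24 h than at 4 h by 1.06 (SE 0.18, adjusted p = 0.00179). The 3 further LOXL2 probe sets never exceeded 44.7 units, and when all 4 were averaged the 24 h TAM effect in siNEG cells was 0.46 (adjusted p = 0.427).

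LOXL1, which deposits elastin cross-links at sites of elastic fiber assembly, fell. In siNEG cells at 24 h it read 145, 139 and 145 units with TAM, against 237, 203 and 212 units with EtOH, a non-overlapping difference of -0.60 (SE 0.16, adjusted p = 0.0208). The call was lost without siNEG EtOH 24 h replicate 1 (adjusted p = 0.0888) or without siNEG TAM 24 h replicate 1 (0.0529), 2 (0.0655) or 3 (0.0527). Its 24 h signal in siSTAT3 cells was 201 and 169 units with TAM, against 228, 162 and 211 units with EtOH, which overlapped (-0.10, 95% interval -0.48 to 0.28). The interaction of 0.50 (95% interval -0.01 to 1.01) was not called (adjusted p = 0.368), so a difference between siRNAs was not established for this gene. At 4 h LOXL1 read 161, 181 and 176 units with TAM in siSTAT3 cells, against 185, 130.1 and 184 units with EtOH, which overlapped. The siNEG arrays at 4 h were 156, 144 and 146 units with TAM, against 168, 235 and 162 units with EtOH (-0.32, adjusted p = 0.452). All 8 groups overlapped their neighbors in the order of means, from siNEG cells with EtOH at 24 h, the highest, to siNEG cells with TAM at 24 h, the lowest.

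LOXL3, whose loss in mice disturbs palate and spine development, was at 100 units or more on 19 of 23 arrays. In siNEG cells at 24 h it read 61.7, 20.5 and 71.4 units with TAM, against 131, 114 and 93.0 units with EtOH. All 3 TAM arrays were dim and below every EtOH array, and the difference was -1.31 (SE 0.33, adjusted p = 0.0149). It was -0.75 (adjusted p = 0.0341) without the lowest array, siNEG TAM 24 h replicate 2, and was no longer called without siNEG EtOH 24 h replicate 1 (adjusted p = 0.0658). In siSTAT3 cells at 24 h LOXL3 read 113 and 169.6 units with TAM, against 114, 165 and 119 units with EtOH, which overlapped (0.08, 95% interval -0.71 to 0.87).

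With TAM at 24 h LOXL3 was higher in siSTAT3 than in siNEG cells by 1.62 (SE 0.37, adjusted p = 0.00701). The difference was 1.06 without siNEG TAM 24 h replicate 2 and was not called without siSTAT3 TAM 24 h replicate 3 (1.33, adjusted p = 0.123). The interaction of 1.40 (95% interval 0.33 to 2.46) was not called (adjusted p = 0.169). At 4 h LOXL3 read 134, 149 and 130.5 units in siSTAT3 cells with TAM, against 143, 182 and 169.7 units with EtOH. The siNEG cells at 4 h read 159.8, 149.5 and 127 units with TAM, against 150.1, 200.5 and 157 units with EtOH. Both pairs overlapped, and no difference at 4 h was called. In the order of means, siNEG cells with TAM at 24 h were last and clear of the rest, and the other 7 groups overlapped their neighbors. A single TTCNNNGAA match lay in 1 of the 2 LOXL3 windows (chromosome 2, minus strand), starting 223 bases upstream of the start site. Of all windows, 7.66% held this motif, and the part of the match in the RNA levels was not tested. The match is shown in the same way because it is the only STAT-type match among the 7 genes searched.
LOXL3, chr2:74554147-74554175: aagagaaagcTTCATTGAAcgagccggga

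LOXL4 was dim throughout, with 1 array at 100 units or more at each of its probe sets. Its main probe set 227145_at ranged from 31.8 to 115 units over the 23 arrays, and all groups overlapped their neighbors. The group means ran from 49.6 units in siSTAT3 cells with TAM at 4 h to 81.2 units in siSTAT3 cells with TAM at 24 h. At 24 h the TAM effect was 0.05 in siSTAT3 cells (95% interval -0.75 to 0.86) and 0.21 in siNEG cells (95% interval -0.51 to 0.93). Neither effect was called, and changes of a size inside these intervals are not excluded.

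The lysyl hydroxylases spanned less than LOX, LOXL3, LOXL2 and LOXL4, and LOXL1 lay between PLOD1 and PLOD2. The highest and lowest group means differed by 2.16 for LOX, 1.90 for LOXL3, 1.36 for LOXL2, 0.77 for LOXL4 and 0.60 for LOXL1 on the log2 scale, and by 0.65 for PLOD1, 0.49 for PLOD2 and 0.43 for PLOD3. LOXL4 varied within groups by an SD of 0.43 and LOXL3 by 0.42, against 0.05 for PLOD3 and 0.09 each for LOX, PLOD1 and PLOD2.

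**Figure D4:**
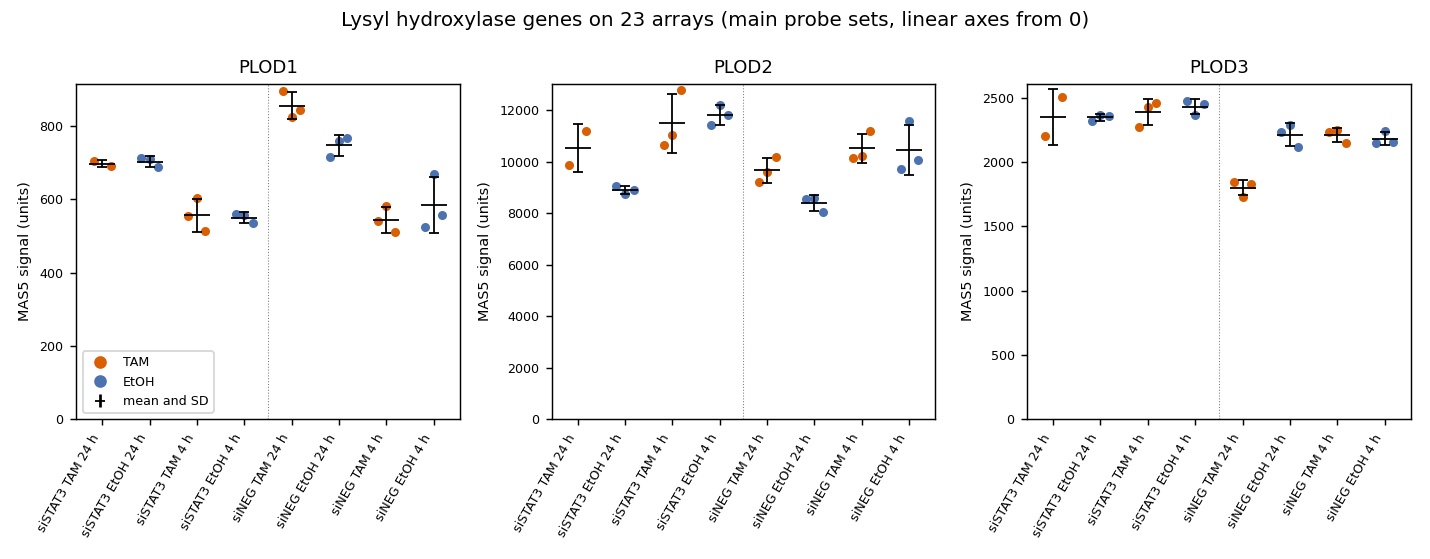
MAS5 signal in units (y axis, from 0) of the main probe sets of PLOD1, PLOD2 and PLOD3 on the 23 arrays by group (x axis), with 1 point per array and the group mean and SD in black. PLOD3 is lowest in siNEG cells with TAM at 24 h (1730.1 to 1841 units), PLOD1 is higher at 24 h than at 4 h in each siRNA, and PLOD2 with EtOH is lower at 24 h.

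PLOD3, a multifunctional enzyme that hydroxylates lysines and also attaches galactose and glucose to them, was the single lysyl hydroxylase called for TAM. Its signal in siNEG cells at 24 h was 1841, 1730.1 and 1832 units with TAM, against 2233, 2289.6 and 2113 units with EtOH. The groups did not overlap, and the decrease was small (-0.30, SE 0.07, adjusted p = 0.00693), or -18.6% on the linear scale. Its 24 h signal in siSTAT3 cells was 2198 and 2503 units with TAM, against 2315, 2365 and 2356 units with EtOH, and the difference was 0.00 (95% interval -0.16 to 0.16). With TAM at 24 h PLOD3 was higher in siSTAT3 than in siNEG cells by 0.38 (SE 0.08, adjusted p = 0.00208), a call lost without siSTAT3 TAM 24 h replicate 3 (adjusted p = 0.0682). The interaction at 24 h was 0.30 (SE 0.10), not called over all probe sets (adjusted p = 0.140) and called when dim probe sets were left out (adjusted p = 0.0366). At 4 h PLOD3 read 2272 to 2459 units with TAM in siSTAT3 cells, against 2362 to 2474 units with EtOH, and 2150.5 to 2245 units with TAM in siNEG cells, against 2147 to 2239.7 units with EtOH. The TAM effects there were -0.03 in siSTAT3 cells and 0.02 in siNEG cells. In the order of means the 4 siSTAT3 groups came above the 4 siNEG groups, and the lowest siSTAT3 group did not overlap the highest siNEG group. However, siSTAT3 TAM 24 h replicate 2 (2198 units) lay below siNEG arrays with EtOH at 24 h (2233 and 2289.6 units). The difference between siSTAT3 and siNEG cells was not called with EtOH at either time or with TAM at 4 h. The siNEG cells with TAM at 24 h were last and clear of the rest.

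PLOD1, which hydroxylates lysines in the helical part of collagen, and whose loss causes a form of Ehlers-Danlos syndrome, followed time more than TAM. With EtOH in siSTAT3 cells it read 711, 709 and 686 units at 24 h, against 559.7, 556 and 534 units at 4 h, a difference of 0.35 (SE 0.09, adjusted p = 0.0168). In siNEG cells with EtOH it read 714, 758 and 767 units at 24 h, against 525, 669 and 556 units at 4 h, a difference of 0.36 (SE 0.09, adjusted p = 0.0161). Neither pair of groups overlapped. The study describes its control cells at 24 h of EtOH as nearing confluence. Time and culture density therefore cannot be told apart in the 24 h against 4 h comparisons. The TAM effect at 24 h was -0.01 in siSTAT3 cells (703 and 689.7 units with TAM) and 0.19 in siNEG cells (895, 824 and 843 units with TAM, 95% interval 0.00 to 0.38, adjusted p = 0.213). In siNEG cells every TAM array at 24 h was above every EtOH array, yet the difference was not called. At 4 h PLOD1 read 513 to 602 units with TAM in siSTAT3 cells and 509 to 581 units with TAM in siNEG cells, both overlapping EtOH. With TAM at 24 h PLOD1 differed by -0.29 between siSTAT3 and siNEG cells (adjusted p = 0.0717), and it was called lower in siSTAT3 cells when dim probe sets were left out (adjusted p = 0.0232). The 4 groups at 24 h ranked above the 4 groups at 4 h, with no overlap where they met.

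PLOD2 hydroxylates lysines in the telopeptides of collagen, the sites from which the most stable cross-links form, and was among the brighter probe sets of the arrays. With EtOH it was lower at 24 h than at 4 h. In siSTAT3 cells it read 9062, 8740.1 and 8918 units at 24 h, against 11421, 12226 and 11819 units at 4 h (-0.41, SE 0.09, adjusted p = 0.00569). In siNEG cells it read 8555, 8584 and 8049.95 units at 24 h, against 9733, 11578 and 10090.0 units at 4 h (-0.31, SE 0.09, adjusted p = 0.0331). PLOD1 and PLOD2 were the 2 of 8 genes called with time in each siRNA, beside 13.4% of all genes in siSTAT3 cells and 12.3% in siNEG cells. PLOD1 was the higher one (8.14% of all genes in siSTAT3 cells and 6.82% in siNEG cells were higher) and PLOD2 the lower one (5.28% and 5.52% were lower).

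Of the 24 h against 4 h calls, that of PLOD2 in siSTAT3 cells held without any single array (adjusted p at most 0.0284), and the other 3 did not. In siSTAT3 cells the PLOD1 call was lost without EtOH 4 h replicate 3 (adjusted p = 0.0621) or without EtOH 24 h replicate 1 (0.0554) or 2 (0.0577). In siNEG cells the PLOD1 call was lost without EtOH 4 h replicate 1 (0.0844) or 3 (0.0647), or EtOH 24 h replicate 2 (0.0556) or 3 (0.0591). The siNEG PLOD2 call was lost without EtOH 4 h replicate 2 (0.162) or 3 (0.0560), or EtOH 24 h replicate 1 (0.0694), 2 (0.0665) or 3 (0.113).

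At 24 h PLOD2 read 9881 and 11183 units with TAM in siSTAT3 cells and 9229, 9608 and 10170.2 units with TAM in siNEG cells, above the EtOH arrays in each case. The TAM effects of 0.24 in siSTAT3 cells (95% interval 0.03 to 0.45, adjusted p = 0.319) and 0.20 in siNEG cells (95% interval 0.02 to 0.39, adjusted p = 0.177) were not called, and the interaction was 0.04 (95% interval -0.24 to 0.32). At 4 h PLOD2 read 10662 to 12799 units with TAM in siSTAT3 cells and 10145 to 11181 units with TAM in siNEG cells, both overlapping EtOH. The further probe set 202619_s_at gave, at 24 h, 0.34 in siSTAT3 cells and 0.24 in siNEG cells, both with an adjusted p of 0.103. With both probe sets averaged the TAM effect was called, at 0.29 in siSTAT3 cells (adjusted p = 0.0170) and 0.22 in siNEG cells (adjusted p = 0.0118). In the order of means, siSTAT3 and siNEG cells with EtOH at 24 h were lowest, each clear of its neighbor, and the other 6 groups overlapped. The PLOD2 window (chromosome 3, minus strand, chr3:146161135-146161434) held 2 ACGTG matches and 1 GCGTG match, starting 200, 146 and 213 bases upstream of the start site, which are shown for comparison with LOX.
PLOD2, chr3:146161370-146161394: tgagcctccaCACGTagccgcaggc
PLOD2, chr3:146161316-146161340: aacagtccagACGTGgggcccagga
PLOD2, chr3:146161383-146161407: cagaagcgctGCGTGagcctccaca
ACGTG lay in each of the 3 LOX windows and in the PLOD2 window. Of all windows 21.4% held it at least once, a share that counts windows and not genes. The share with as many as 4 matches was not counted, and the part of these matches in the RNA levels was not tested.

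The siRNA comparisons count the genes in the same way. The interaction at 24 h called 2 of the 8 genes, LOX and LOXL2, both lower (5.91% of all genes called, 2.49% lower), and 4 had an unadjusted p under 0.05. At 4 h the interaction called 0 by limma (0.521% of all genes) and 0 had an unadjusted p under 0.05. With TAM, siSTAT3 against siNEG cells called 4 genes at 24 h (16.5% of all genes), with LOXL3 and PLOD3 higher (9.72% of all genes) and LOX and LOXL2 lower (6.77%). At 4 h it called LOX alone, as lower (9.29% of all genes called, 4.61% lower). With EtOH it called 0 at 24 h (2.86% of all genes, 0 with an unadjusted p under 0.05) and 0 at 4 h (4.28% of all genes, 2 with an unadjusted p under 0.05). The TAM effect differed between 24 h and 4 h in siNEG cells for LOX and LOXL2, both higher (5.59% of all genes called, 2.97% higher). By the limits of the methods, LOX alone was called in the interaction at 24 h (2.88% of all genes) and between siSTAT3 and siNEG cells with TAM at 24 h (7.15%). By the same limits 0 of the 8 were called between siSTAT3 and siNEG cells with TAM at 4 h (3.51% of all genes), and 0 with time in EtOH (4.58% in siSTAT3 cells and 3.87% in siNEG cells). These comparisons share arrays, so their calls are not separate pieces of evidence.

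Summed fibroblast marker signal at 24 h was higher with TAM than with EtOH in each siRNA. It was 4289 to 4449 units in siSTAT3 cells with TAM at 24 h, against 3669 to 3759 units with EtOH, and 9471 to 10721 units in siNEG cells with TAM at 24 h, against 6574 to 6961 units with EtOH. At 4 h it was 3024 to 3243 units in siSTAT3 cells with TAM, against 2981 to 3136 units with EtOH, and 4440 to 4577 units in siNEG cells with TAM, against 4245 to 4382 units with EtOH. With EtOH, too, the sum was higher at 24 h than at 4 h in each siRNA. Of the 7 fibroblast markers, DCN (0.39) and COL6A3 (2.17) rose with TAM at 24 h in siNEG cells (6.06% of all genes rose). In siSTAT3 cells COL6A3 (1.18) and FAP (0.78) rose (2.00% of all genes). The interactions were -0.66 for DCN and -0.99 for COL6A3. Of the 5 general and luminal epithelial markers, CDH1 (-1.16), KRT8 (-1.16) and EPCAM (-0.63) fell with TAM at 24 h in siNEG cells (9.31% of all genes fell). KRT18 and KRT19 were not called there. The interactions of CDH1, KRT8 and EPCAM were 1.45, 1.42 and 0.43. The fibroblast sum came from DCN (1463 to 7270 units over all arrays), FAP (906 to 2066) and COL6A3 (150.2 to 1942), since the other 4 of the 7 were under 100 units on every array. The ACTB ratio of 3′ to 5′ signal, a sign of RNA quality, lay between 1.21 and 1.44 over all arrays and was at the low end, 1.21, on both siSTAT3 arrays given TAM for 24 h. The part of these in the results was not tested.

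The genes around the cross-linking enzymes were followed in 4 lists. Of 11 collagen and elastin substrates, 2 rose with TAM at 24 h in siSTAT3 cells (2.00% of all genes rose) and 3 rose in siNEG cells (6.06%), and the others were not called. COL4A1 and COL4A2, the chains of basement membrane collagen IV, rose by 0.61 and 0.41 in siNEG cells, and FBN1, the microfibril protein fibrillin-1, by 0.55. In siSTAT3 cells COL4A1 (0.52) and FBN1 (0.67) rose. Their interactions were -0.09, -0.29 and 0.12 for COL4A1, COL4A2 and FBN1, and none was called. The list median in siNEG cells was 0.26, against -0.04 for all genes.

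Of 15 measured genes of collagen modification and folding in the endoplasmic reticulum, 0 were called by limma in siSTAT3 cells. There 2.75% of all genes were called, and 3 of the 15 had an unadjusted p under 0.05. In siNEG cells 1 rose and 1 fell, beside 6.06% and 9.31% of all genes. P4HA1, a catalytic subunit of prolyl 4-hydroxylase, rose by 0.55 (3261 ± 159 units with TAM, against 2236 ± 186 units with EtOH, mean ± SD, n = 3). P3H2, a prolyl 3-hydroxylase that acts on collagen IV, fell (-0.99, SE 0.18, adjusted p = 0.00120), and its interaction was 1.25 (adjusted p = 0.0117). The list median in siNEG cells was 0.00.

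Of 15 genes of procollagen processing and fiber assembly, 2 rose in siSTAT3 cells, POSTN and FN1 (2.00% of all genes rose), and 2 rose (6.06%) and 1 fell (9.31%) in siNEG cells. BMP1, the protease that cleaves procollagens and pro-LOX, rose by 0.87 in siNEG cells (968 ± 43.0 units with TAM, against 532 ± 79.9 units with EtOH), and its interaction of -0.40 was not called (adjusted p = 0.349). POSTN, or periostin, a matrix protein that brings BMP1 to its substrates, rose in both siRNAs, by 2.47 in siSTAT3 cells and 1.06 in siNEG cells, with an interaction of 1.40 (adjusted p = 1.60e-06). SPARC, a collagen-binding protein, fell in siNEG cells (-0.67) with an interaction of 0.68 (adjusted p = 0.000761). POSTN and LOX thus differed between siRNAs in opposite directions.

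Of 9 measured hypoxia-inducible genes, 1 (ADM) rose with TAM at 24 h in siSTAT3 cells (2.00% of all genes rose) and 7 rose in siNEG cells (6.06%), where the list median was 0.71 and that of all genes -0.04. In siNEG cells the 24 h effects were 2.70 for NDRG1, 2.61 for the prolyl hydroxylase EGLN3, 1.54 for VEGFA, the vascular growth factor, and 0.84 for BNIP3. Their interactions were -2.01, -2.95, -1.24 and -0.56, all called. The interaction called 5 of the 9, all lower (2.49% of all genes were lower), the fifth being PDK1 (-1.05). PLOD2 and P4HA1 are known targets of hypoxia-inducible factors, and their interactions were 0.04 and -0.29, neither of them called. The part of these factors in the RNA levels was not tested.

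**Figure D5:**
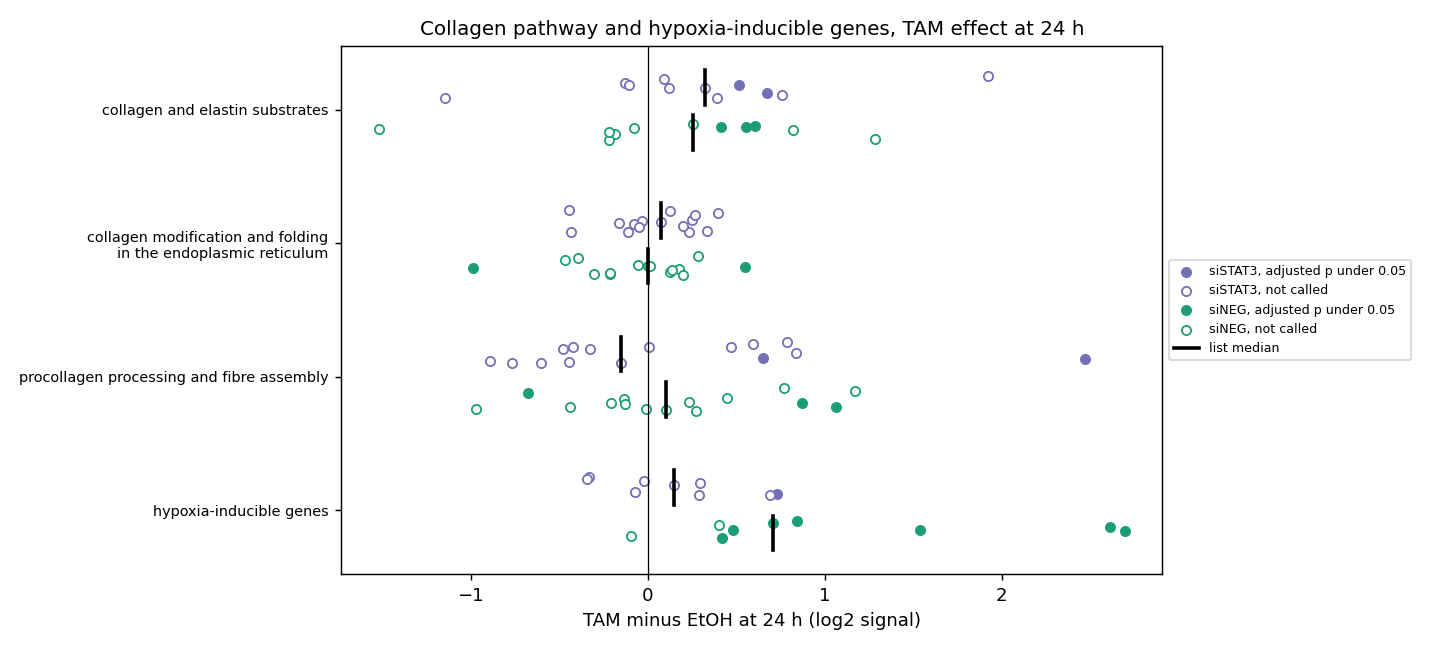
TAM minus EtOH at 24 h on the log2 signal scale (x axis) for each gene of the 4 lists (y axis), in siSTAT3 cells (purple) above siNEG cells (green), filled where the adjusted p was under 0.05, with the list median as a black bar. In the hypoxia list the siNEG median is 0.71 and the siSTAT3 median 0.15, while the other lists have medians between -0.15 and 0.32.

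Across the 8 group means of log2 signal, LOX correlated with LOXL2 at r = 0.88, with LOXL3 at r = -0.95 and with PLOD3 at r = -0.94. These are descriptions over 8 points that share the siNEG TAM 24 h arrays, where all 4 genes had their highest or lowest value. Among 2035 genes with a mean signal of at least 100 units and group means that span at least 1, those most like LOX were CTSLP8 (r = 0.995), FCRLB (0.995) and PYGL (0.991). Those most like LOXL2 were ADAM19 (0.987), SLC46A3 (0.964) and LAMP3 (0.963), and those most like LOXL3 were ARHGEF17 (0.987), MAP2 (0.979) and PRAG1 (0.978). In siNEG cells TAM changed ADAM19, a membrane-bound metalloprotease, by 5.39 at 24 h, and PYGL, the liver form of glycogen phosphorylase, by 0.90.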

How the data were processed

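RNA was hybridized to Affymetrix Human Genome U133 Plus 2.0 arrays. The deposited intensity values are linear signals, 1 per probe set and array, which the authors background corrected, normalized and summarised with the MAS5 algorithm. Their scaling target and the detection calls are not given in the sources used here, and background correction could not be varied. Probe sets were named through the platform annotation (41097 with 1 gene, 1801 with several, 11777 unnamed). Signals were log2 transformed with nothing added and fitted with limma 3.58.1 in R 4.3.3, with 1 mean for each of the 8 groups over all 23 arrays (15 residual and 1.27 prior degrees of freedom). There were 13 comparisons, and p-values, all two-sided, were adjusted by Benjamini-Hochberg over all 54675 probe sets of a comparison. The model was tested on simulated data with known changes. The number of arrays limits the precision, and the mean absolute log2 difference between 2 arrays of a group was 0.198 to 0.278 (28890 probe sets).

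The named genes are the 8 enzymes, STAT3 as the check of the siRNA, from each pathway list up to 4 genes with the largest TAM effect at 24 h in siNEG cells among those called with a mean of at least 100 units, and, for likeness, the 3 best correlated genes of each enzyme that spanned at least 1. Genes named outside this rule were chosen after their values were seen. The members, the 9 gene lists (80 genes, 73 measured: collagen and elastin substrates, collagen modification, procollagen processing, hypoxia-inducible genes, and basal, luminal, fibroblast, immune and endothelial markers), the tests and the alternatives were chosen with earlier results of these data known. Alternatives were the limits of the study's methods (p under 0.0001 and absolute log2 over 0.5), quantile normalization, a filter for 100 units on 2 arrays, an offset of 16 units, a trended robust prior, the mean of a gene's probe sets, only the compared arrays, a replicate block, and leaving out each array. Promoter windows are RefSeq sequences of GRCh38.p14, and 7 of the 8 genes matched a window.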

Additional observations from a re-analysis of the deposited data

Results flagged for a closer look

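The TAM effect differed between siSTAT3 and siNEG cells at 24 h, by limma's interaction, for LOX (-1.68, SE 0.14, adjusted p = 9.71e-07) and for LOXL2 (-0.81, SE 0.19, adjusted p = 0.0197). In siNEG cells it also differed between 24 h and 4 h, for LOX by 1.58 (SE 0.13, adjusted p = 1.14e-06) and for LOXL2 by 1.06 (SE 0.18, adjusted p = 0.00179). These contrasts share the siNEG TAM 24 h arrays. Single arrays that stand apart were not sought, because no group had more than 3 arrays.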

How the results depend on the processing

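Of 18 calls of single genes, the 4 that no alternative removed were all of LOX: the 24 h TAM effect in siNEG cells, the 24 h interaction, siSTAT3 against siNEG with TAM at 24 h, and 24 h against 4 h of the TAM effect. No called value reversed. With the limits of the methods, the number of the 8 genes called was 2 in place of 5 for TAM at 24 h in siNEG cells, 1 in place of 2 for the 24 h interaction, 1 in place of 4 and 0 in place of 1 for siSTAT3 against siNEG with TAM at 24 h and 4 h, and 0 in place of 2 for 24 h against 4 h with EtOH in each siRNA. With only the compared arrays, which leaves fewer degrees of freedom, these counts were 3, 1, 1, 0 and 0, and the TAM effect at 24 h minus 4 h kept 1 of 2. Averaging the probe sets of a gene lost LOXL2, which gave 1 of 2 for the 24 h interaction and for 24 h minus 4 h, 3 in place of 4 for siSTAT3 against siNEG with TAM at 24 h, and still 5 for TAM at 24 h in siNEG cells, where PLOD2 was called instead. It also gave 1 in place of 0 for TAM at 24 h in siSTAT3 cells (PLOD2), 1 in place of 0 for siSTAT3 against siNEG with EtOH at 4 h (LOX, -0.48) and 3 in place of 2 for 24 h against 4 h with EtOH in siSTAT3 cells (LOX, 0.63). The filter on dim probe sets and the trended, robust prior each gave 1 in place of 0 for TAM at 4 h in siNEG cells (LOX), 1 in place of 0 for TAM at 24 h in siSTAT3 cells (LOXL2, also with quantile normalization) and 3 in place of 2 for 24 h minus 4 h (PLOD3, -0.31). The filter alone gave 3 in place of 2 for the 24 h interaction (PLOD3) and 5 in place of 4 for siSTAT3 against siNEG with TAM at 24 h (PLOD1). LOXL4 gave no value under the filter. Leaving out single arrays gave 3 to 5 genes for TAM at 24 h in siNEG cells, 1 to 2 for the 24 h interaction, 2 to 4 for siSTAT3 against siNEG with TAM at 24 h, and, for 24 h against 4 h with EtOH, 1 to 2 in siSTAT3 cells and 0 to 1 in siNEG cells. Where this left 1 siSTAT3 TAM 24 h array, it was assumed to vary like the other groups. The replicate numbers were not taken as pairs, since this needed a correlation over 0.1 in every same-number pair. Deviations from the group means correlated at a median of 0.0272 over 77 same-number pairs, against -0.0127 for other pairs, and 7 pairs exceeded 0.1, although 18 of 23 arrays had a higher mean correlation with same-numbered arrays than with the rest. A replicate block gave the same counts of calls in all 13 comparisons, with 5 genes for TAM at 24 h in siNEG cells, 2 for the 24 h interaction and 4 for siSTAT3 against siNEG with TAM at 24 h. Signals under 100 units, as for LOXL3, LOXL4 and LOX 213640_s_at, limit what can be seen.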

Other observations

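In siNEG cells at 4 h of TAM, when 0 of the 8 cross-linking enzymes were called by limma and 2 had an unadjusted p under 0.05, 4 of the 9 measured hypoxia-inducible genes had risen (1.67% of all genes) and 1 had fallen (1.58%). NDRG1 was higher by 1.10, VEGFA by 0.84, ADM by 0.72 and ANKRD37 by 0.65, and SLC2A1, the glucose transporter GLUT1, differed by -0.33. In siSTAT3 cells at 24 h ADM was the 1 member that rose (0.73), and it was not called in siNEG cells (0.40, adjusted p = 0.128). FN1, or fibronectin, rose in siSTAT3 cells at 24 h (0.65) and read 0.10 in siNEG cells, with an interaction of 0.55 (adjusted p = 0.0243). COL1A1, a chain of collagen I, had an interaction of 0.51 at 24 h (adjusted p = 0.0338), with 0.32 in siSTAT3 cells and -0.18 in siNEG cells, neither of them called. These genes were chosen after their values were seen.

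Of the 4 measured basal epithelial markers, ITGB4 (0.41) rose with TAM at 24 h in siNEG cells (6.06% of all genes rose), and the others were not called. Of the 3 measured immune markers 0 were called by limma at 24 h in siNEG cells (15.4% of all genes called), and 1 had an unadjusted p under 0.05. Over all arrays CD14 read 361 to 899 units, while PTPRC reached at most 56.1 units and CD3E at most 105 units. Of the 4 endothelial markers PECAM1 fell (-1.15, beside 9.31% of all genes) and TEK was called higher (6.06%). PECAM1 read 145 to 464 units over all arrays, and CDH5 and VWF stayed under 100 units. TEK had a median of 6.93 units over all arrays, far under 100 units, so no size is given for it.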
